A study of Mus musculus with 6 samples.

Results

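The genes described here encode the machinery of mitosis: the kinases and cyclins that start it, the spindle checkpoint, the kinetochore, the condensin complexes and the proteins of cytokinesis. They are a fixed list of 55 symbols, taken from the 55487 genes of the deposited table by gene name, and each symbol matched 1 row. Kinesin motors are not among them, apart from Cenpe, which is itself a kinesin. They were measured by RNA-seq in RM-1, a line of mouse prostate carcinoma that arose from fetal urogenital tissue given activated ras and myc. The tested cells carried a lentivirus for Bhlhe22, a basic helix-loop-helix transcription factor of neural development (called Bhlhe22 cells), and the controls carried a blank lentivirus (called vector cells), with 3 libraries in each group. The labels do not say whether either line is 1 clone or a pool of infected cells, nor whether the libraries of a group came from different cultures, so p-values here measure only the spread between these libraries, which may be technical. The series title links Bhlhe22 to myeloid cell infiltration of bone metastases and to resistance to immune checkpoint therapy, and the comparison asks how gene expression differs between these cells in culture.

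Entry into mitosis is driven by CDK1 bound to cyclin A or cyclin B, which switches on the Polo and Aurora kinases. Condensin compacts the chromosomes, kinetochores attach them to the spindle, and the checkpoint holds back the anaphase-promoting complex (APC/C, a ubiquitin ligase) until every chromosome is attached. Most of these genes are transcribed late in the cell cycle through promoter elements read by MuvB complexes: with the RB-like proteins MuvB forms the DREAM repressor, and with MYBL2 and FOXM1 it forms activators. In a bulk culture, fewer cells in G2 and mitosis and less of these RNAs per cell cannot be told apart.

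The promoter elements are shown here because they are a feature that many of these genes share and that the choice by gene name did not use. Since most of these genes are known to be transcribed through such elements, their shares here are a description and not an independent finding. The cell cycle genes homology region (CHR) was searched as TTTGAA or TTCGAA, and the CCAAT box, which binds NF-Y, as CCAAT, each on both strands. The windows run from 250 bases before to 50 bases after the gene start in RefSeq (GRCm38.p6), and 46 of the 55 genes had at least 1 (not Aurkb, Incenp, Spc24, Cdca2, Foxm1, Ccna2, Tpx2, Smc4 and Cdc25c). Windows are printed 5′ to 3′ on the gene's strand with both elements in capitals. On the other strand the CHR reads TTCAAA or TTCGAA and the CCAAT box reads ATTGG. The first 3 belong to genes that fell, Mybl2 had the largest fall of all 55 and no match, and Cenpn had matches and the smallest difference. By the deposited coordinates Mybl2 starts at base 163054687, past the end of its window, so sequence from there on was not searched. The same holds for Mad2l1, which starts at base 66535390 and whose window ends at 66535270. The windows of Cdca3 and Cdca8 lie inside the deposited genes, so the sequence at their deposited starts was not searched. Cdca3 (plus strand) starts at base 124829547 and its window at 124829926. Cdca8 (minus strand) starts at base 124939311 and its window ends at 124937167. Both are counted below as holding both elements.
Cdk1, chr10:69352863-69353162, minus strand: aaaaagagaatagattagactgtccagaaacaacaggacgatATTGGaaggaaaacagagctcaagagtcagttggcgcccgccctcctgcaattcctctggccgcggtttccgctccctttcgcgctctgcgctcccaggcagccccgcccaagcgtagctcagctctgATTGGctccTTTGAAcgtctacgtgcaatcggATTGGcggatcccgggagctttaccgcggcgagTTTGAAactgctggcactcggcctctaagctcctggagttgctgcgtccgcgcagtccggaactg
Ccnb2, chr9:70421505-70421804, minus strand: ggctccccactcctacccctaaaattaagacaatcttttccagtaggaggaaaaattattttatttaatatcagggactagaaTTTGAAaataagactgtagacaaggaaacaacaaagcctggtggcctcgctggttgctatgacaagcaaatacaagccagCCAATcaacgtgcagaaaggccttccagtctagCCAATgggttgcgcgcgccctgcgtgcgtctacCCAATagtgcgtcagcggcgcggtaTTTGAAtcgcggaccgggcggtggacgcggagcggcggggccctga
Bub1, chr2:127831810-127832109, minus strand: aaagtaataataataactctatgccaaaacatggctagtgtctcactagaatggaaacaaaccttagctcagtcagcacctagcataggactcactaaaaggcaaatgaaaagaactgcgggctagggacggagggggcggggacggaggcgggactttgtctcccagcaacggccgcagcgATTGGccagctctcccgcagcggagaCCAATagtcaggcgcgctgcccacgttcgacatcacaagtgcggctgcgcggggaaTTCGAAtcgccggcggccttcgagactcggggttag
Mybl2, chr2:163054385-163054684, plus strand: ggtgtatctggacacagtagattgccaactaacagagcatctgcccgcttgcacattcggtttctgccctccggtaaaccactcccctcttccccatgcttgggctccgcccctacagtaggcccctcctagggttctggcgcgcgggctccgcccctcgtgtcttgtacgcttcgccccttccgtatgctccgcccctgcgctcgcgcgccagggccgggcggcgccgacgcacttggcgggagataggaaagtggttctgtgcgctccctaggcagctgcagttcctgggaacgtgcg
Cenpn, chr8:116921490-116921789, plus strand: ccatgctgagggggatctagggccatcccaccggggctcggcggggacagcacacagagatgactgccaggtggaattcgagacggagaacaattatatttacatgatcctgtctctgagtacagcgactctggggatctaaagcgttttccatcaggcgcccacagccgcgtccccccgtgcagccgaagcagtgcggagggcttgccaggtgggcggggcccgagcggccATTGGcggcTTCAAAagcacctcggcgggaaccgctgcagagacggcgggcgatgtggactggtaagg

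A CHR match was present in 33 of the 46 genes (71.7%), against 16.5% of the 9932 tested genes with a window. Within the stretch from 100 bases before to 50 after the start, 31 of 46 held one (67.4%, against 6.67%). CCAAT was present in 34 of 46 (73.9%, against 43.6%), and both elements stood in the same window in 28 of 46 (60.9%, against 7.08%). In the Ccnb2 window the 3 CCAAT boxes began 87, 54 and 21 bases before the start, and the nearer CHR began at base 5 after it. The E2F core GCGGGAA was found in 5 of 46 (10.9%, against 9.99%), while 12 of 26 genes of G1/S and replication held it (46.2%) and 5 of those 26 held a CHR (19.2%). The E-box, CANNTG, to which basic helix-loop-helix proteins bind, was found in 29 of 46 (63%, against 66.6%), its form CAGCTG in 8 (17.4%, against 17.6%) and its form CATATG in 0 (against 2.03%). CAGCTG and CATATG are both forms of CANNTG, and a match is a match of letters only. The median log2 fold change was -0.57 in the 33 genes with a CHR and -0.54 in the 13 without. For a CHR within that nearer stretch it was -0.51 in the 31 genes with one and -0.54 in the 15 without. For CCAAT it was -0.49 in the 34 genes with one and -0.60 in the 12 without. For both elements it was -0.49 in the 28 genes with them and -0.57 in the 18 without. These medians differ in direction between the elements and were not tested.

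**Figure D1:**
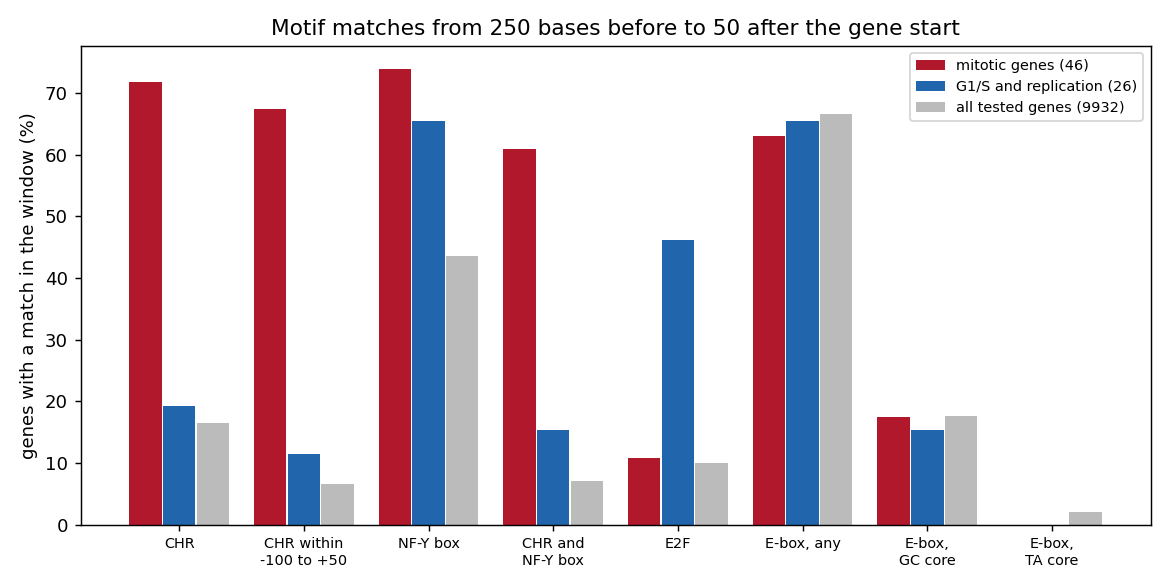
Share of genes (%) with a match to each motif in the window around the gene start, for the mitotic genes with a window (46), the G1/S and replication genes with a window (26) and all tested genes with a window (9932). The NF-Y box is CCAAT, and the GC and TA cores are the E-box forms CAGCTG and CATATG. CHR matches stood at 71.7% in the mitotic genes and 16.5% in all tested genes, while the E-boxes differed little.

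The libraries held 15464709, 19548474 and 25129552 counts in Bhlhe22 replicates 1, 2 and 3 and 17950347, 20446128 and 21223227 counts in vector replicates 1, 2 and 3. Bhlhe22 had 8706 to 17995 counts in the Bhlhe22 libraries and 0 in all 3 vector libraries (at least 4538-fold higher, taking 3 counts per vector library as the limit; edgeR adjusted p = 4.7e-05), as the labels say. Of the epithelial and prostate markers examined, Krt8 and Krt18 were expressed (545 and 665 CPM, counts scaled to library size, in Bhlhe22 cells and 757 and 665 CPM in vector cells), Krt8 was the 1 gene of that list called lower (edgeR adjusted p = 0.0047, log2 fold change -0.47, SE 0.07), and Hoxb13 and Pbsn had 0 counts in all 6 libraries. Of the leukocyte markers, Adgre1, Cd3e and Itgam had 0 counts in all 6 libraries and Ptprc had 3 or fewer in each, while Cd68 had 762 to 1305. Of 6 mesenchymal markers 2 were lower in Bhlhe22 cells, Vim (log2 fold change -0.33) and Col1a2 (2 to 3 counts a library in Bhlhe22 cells and 9 to 12 in vector cells). Of the pair of RM-1 transforming genes, Hras and Myc, 1 was lower (log2 fold change -0.34) and the other did not pass (0.26). The part of these shifts in the results was not tested. Bhlhe22 replicate 1 stood apart from its group. Its deviation from the group mean ran against gene length, with r = -0.52 over these 55 genes and r = -0.46 over 11351 tested genes with at least 100 counts in Bhlhe22 replicate 3, where replicates 2 and 3 had r = 0.51 and 0.40 over the 55 genes. Deviations in 1 group sum to 0, so these 3 values are not independent, and genes are not independent replicates. Across the 55 genes the log2 fold change itself had r = -0.10 with length in all 6 libraries and r = 0.07 without Bhlhe22 replicate 1. For Bhlhe22 replicate 1 alone against the vector libraries r was -0.32 over the 55 genes and -0.26 over the 11351 genes, and without it r over the 11351 genes was 0.10. Calls of single genes among the 55 that change without that library are given both ways.

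**Figure D2:**
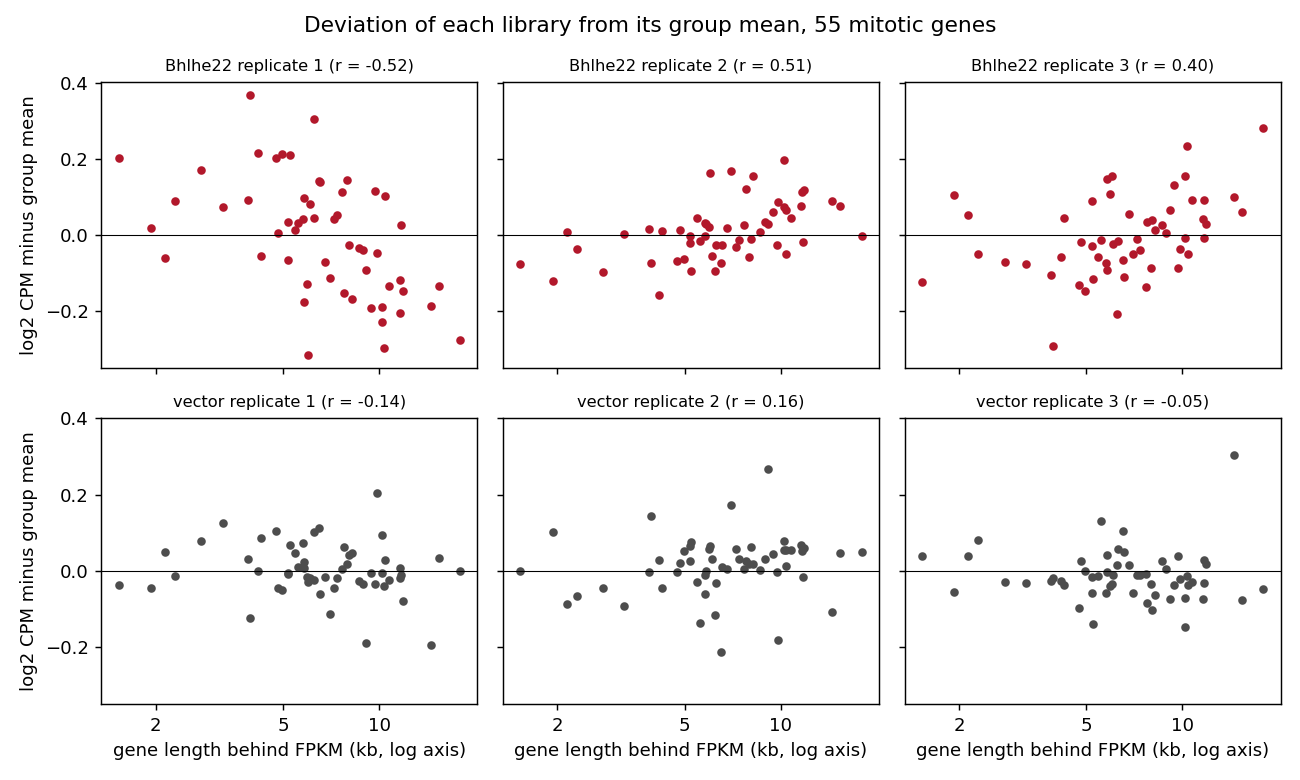
Deviation of each library's log2 CPM from the mean of its own group (y axis) against gene length in kilobases (x axis, log scale), 1 point per mitotic gene, with the 3 Bhlhe22 libraries above and the 3 vector libraries below. In Bhlhe22 replicate 1 long genes lie low and short genes high (r = -0.52), while in vector replicates 1, 2 and 3 r was -0.14, 0.16 and -0.05.

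The mitotic genes were lower in Bhlhe22 cells as a body. Of the 55, 43 fell and 0 rose (edgeR quasi-likelihood test, Benjamini-Hochberg adjusted p below 0.05 over all 14663 tested genes), where 9.28% of all tested genes fell and 10.4% rose (19.6% either way). The other 12 did not pass, and their log2 fold changes were also below 0, as they were for 48.7% of all tested genes. The median log2 fold change was -0.51, that is 29.6% lower, against 0.01 over all tested genes. Together the 55 genes took 0.552%, 0.578% and 0.582% of all counts in Bhlhe22 replicates 1, 2 and 3, against 0.843%, 0.855% and 0.836% in vector replicates 1, 2 and 3, so the groups did not overlap. Gene by gene, all 3 Bhlhe22 values lay below all 3 vector values in 49 of the 55, against 20.0% of all tested genes (40.8% did not overlap in either direction). Without Bhlhe22 replicate 1, 51 of the 55 fell, but 15.6% of all tested genes then fell as well, and the median was -0.54. Leaving out any other library left 35 to 39 genes lower, where 4.25% to 7.01% of all tested genes fell.

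**Figure D3:**
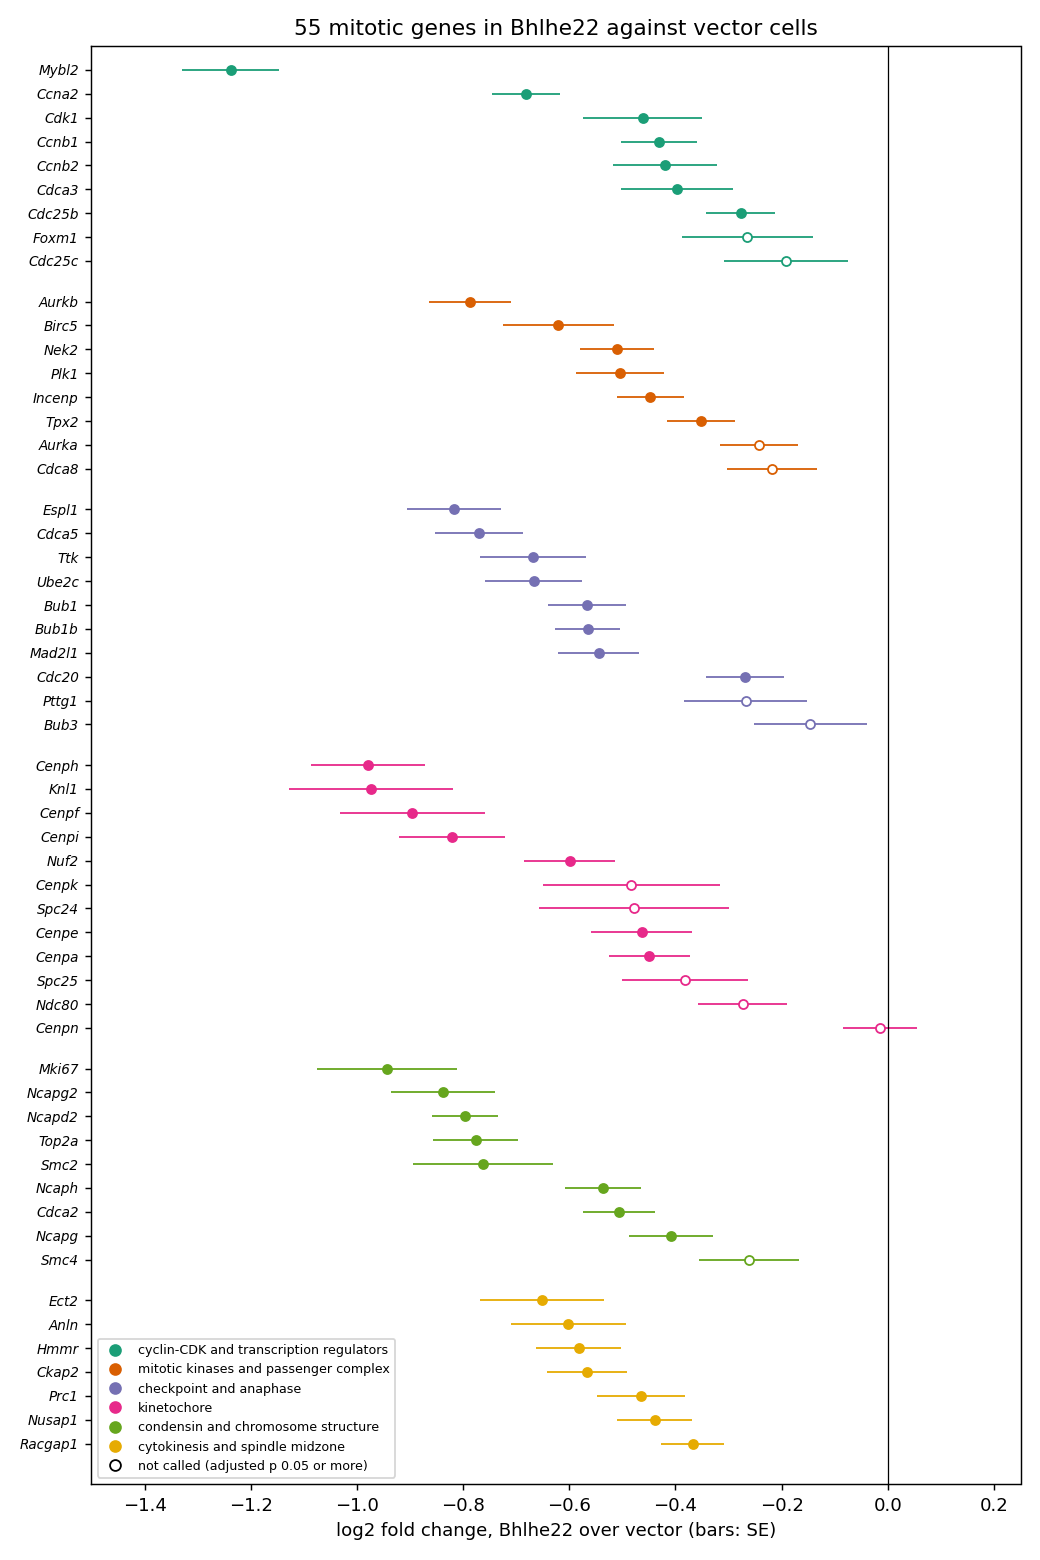
Log2 fold change, Bhlhe22 over vector cells (x axis), of the 55 mitotic genes ordered by role, with SE bars, filled where called and open where not. Every point lies left of 0, from -1.24 for Mybl2 to -0.01 for Cenpn.

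The regulators of mitotic entry differed widely in the size of their fall, with 7 of 9 lower and a median log2 fold change of -0.42. Mybl2, which encodes the B-MYB activator of late cell cycle genes, had 32.7, 31.6 and 31.6 CPM in Bhlhe22 replicates 1, 2 and 3, against 75.6, 68.2 and 82.2 CPM in vector replicates 1, 2 and 3 (edgeR adjusted p = 2.9e-04, log2 fold change -1.24, SE 0.09). The Bhlhe22 values were within 2 CPM of each other and far below every vector value. Foxm1, the gene of the other activator, had 107, 117 and 119.6 CPM in the Bhlhe22 libraries, against 119, 164 and 129 CPM in the vector libraries (edgeR adjusted p = 0.185, log2 fold change -0.26, SE 0.12). The groups overlapped for Foxm1, since vector replicate 1 lay below Bhlhe22 replicate 3, and vector replicate 2 was higher than all others. Ccna2, encoding cyclin A2, had 153, 145 and 146 CPM in the Bhlhe22 libraries, against 234, 232 and 247 CPM in the vector libraries (edgeR adjusted p = 7.5e-04, log2 fold change -0.68, SE 0.06), with 12.5% of its exon bases opposite Exosc9. Cdk1, the kinase it binds, had 138, 119 and 119.8 CPM in the Bhlhe22 libraries, against 186, 148 and 185 CPM in the vector libraries (edgeR adjusted p = 0.028, log2 fold change -0.46, SE 0.11). Ccnb1, encoding cyclin B1, had 104, 105 and 109 CPM in the Bhlhe22 libraries, against 147, 149 and 133 CPM in the vector libraries (edgeR adjusted p = 0.007, log2 fold change -0.43, SE 0.07). All 3 Bhlhe22 values were below all 3 vector values for Ccna2, Cdk1 and Ccnb1, with the closest approach in Cdk1. Ccnb2, encoding cyclin B2, was the most abundant of this group per length, at 63.8 FPKM in Bhlhe22 cells and 86.7 FPKM in vector cells (the deposited values scaled to gene length and depth). It had 113, 93.0 and 90.1 CPM in the Bhlhe22 libraries, against 128, 132 and 135 CPM in the vector libraries (edgeR adjusted p = 0.024, log2 fold change -0.42, SE 0.10), and its groups did not overlap.

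Of the phosphatases that activate CDK1, Cdc25b fell slightly, with 109.6, 117 and 119.7 CPM in the Bhlhe22 libraries, against 138, 140.0 and 141 CPM in the vector libraries (edgeR adjusted p = 0.026, log2 fold change -0.28, SE 0.07). Cdc25c, with 29.1, 35.5 and 30.4 CPM in the Bhlhe22 libraries, against 33.3, 40.7 and 34.6 CPM in the vector libraries, did not pass (edgeR adjusted p = 0.299, log2 fold change -0.19, SE 0.12), its groups overlapped, and 12.7% of its exon bases lie opposite Gm3550. Cdca3, whose protein in frog and human cells promotes the breakdown of the CDK1 inhibitor WEE1, fell by 0.40 on the log2 scale. Several of these calls were close to the threshold. Cdk1 lost its call without Bhlhe22 replicate 2 or 3 or vector replicate 1 or 3 (edgeR adjusted p from 0.074 to 0.108), and Cdc25b without Bhlhe22 replicate 2 or any 1 vector replicate (0.0829 to 0.0957). Ccnb2 (0.0638 to 0.0949) and Cdca3 (0.0927 to 0.133) lost theirs without any library but Bhlhe22 replicate 1. With the replicate number as a block Cdc25b (0.069) and Cdca3 (0.063) lost their calls, as did Cdc25b with no filter on low counts (0.061). The group count was 7 without that library and 3 or 4 without any other: 3 without Bhlhe22 replicate 2, vector replicate 1 or vector replicate 3, and 4 without Bhlhe22 replicate 3 or vector replicate 2.

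Ccnb1 counts may be shared with its processed pseudogene Ccnb1-ps, which is listed apart and had 681, 1109 and 1284 counts in the Bhlhe22 libraries and 1307, 1582 and 1456 counts in the vector libraries. Its log2 fold change was -0.50 (edgeR adjusted p = 0.018). The pseudogene held 30.1% to 35.3% of the summed counts in the Bhlhe22 libraries and 33.1% to 34% in the vector libraries. Summed over both rows, the level was 148.8, 162.3 and 160.0 CPM in the Bhlhe22 libraries, against 219.2, 225.9 and 200.9 CPM in the vector libraries, so the groups did not overlap for the sum either.

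**Figure D4:**
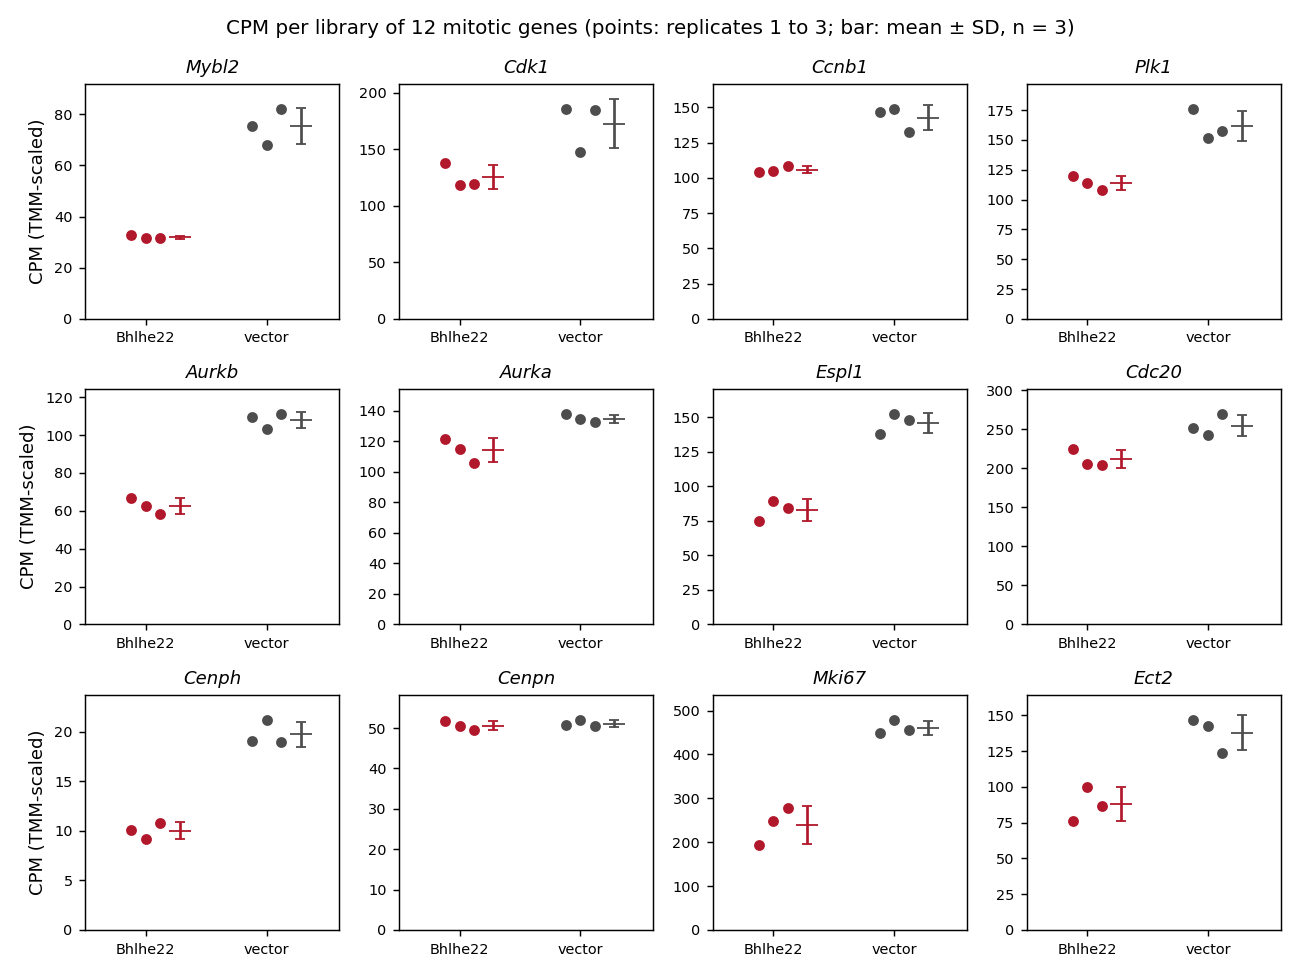
CPM in each library (y axis, from 0) of 12 mitotic genes, with Bhlhe22 cells left and vector cells right, points for replicates 1 to 3 and a bar for the mean ± SD (n = 3). The groups are apart in all panels but that of Cenpn. There the Bhlhe22 values were 51.8, 50.5 and 49.6 CPM, and only that of replicate 1 stands among the vector values.

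Among the mitotic kinases and the chromosomal passenger complex 6 of 8 genes fell, with a median log2 fold change of -0.48. Aurkb, the catalytic kinase of the passenger complex, which corrects faulty attachments, had 66.9, 62.3 and 58.6 CPM in Bhlhe22 replicates 1, 2 and 3, against 109.7, 103 and 111 CPM in vector replicates 1, 2 and 3 (edgeR adjusted p = 8.8e-04, log2 fold change -0.79, SE 0.08). Birc5, encoding survivin, which anchors that complex at the centromere, had 76.0, 58.6 and 62.8 CPM in the Bhlhe22 libraries, against 101, 103 and 99.2 CPM in the vector libraries (edgeR adjusted p = 0.0073, log2 fold change -0.62, SE 0.10). In both genes the groups were well apart. Incenp, the scaffold of the same complex, fell by 0.45 on the log2 scale, but Cdca8, encoding its borealin subunit, did not pass, with 105, 93.4 and 88.0 CPM in the Bhlhe22 libraries, against 106, 112 and 115 CPM in the vector libraries (edgeR adjusted p = 0.116, log2 fold change -0.22, SE 0.08). Bhlhe22 replicate 1 was the high one in its group for Cdca8 and came within 2 CPM of vector replicate 1. Without that library Cdca8 passed (log2 fold change -0.30, edgeR adjusted p = 0.006).

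Plk1, the Polo-like kinase of mitotic entry and spindle assembly, was the most abundant of this group per length, at 34.8 FPKM in Bhlhe22 cells and 50.2 FPKM in vector cells. Its values were 119.7, 114 and 108 CPM in the Bhlhe22 libraries, against 176, 151 and 158 CPM in the vector libraries (edgeR adjusted p = 0.0065, log2 fold change -0.51, SE 0.08). Nek2, a centrosome kinase, fell by 0.51 on the log2 scale. Aurka, the centrosomal Aurora kinase, had 121, 115 and 106 CPM in the Bhlhe22 libraries, against 138, 134 and 132 CPM in the vector libraries (edgeR adjusted p = 0.059, log2 fold change -0.24, SE 0.07). Its groups did not overlap, yet it missed the threshold, which it passed without Bhlhe22 replicate 1 (log2 fold change -0.30, edgeR adjusted p = 0.005). Tpx2, whose protein activates Aurora A on the spindle, fell by 0.35 (edgeR adjusted p = 0.01) and lost its call without Bhlhe22 replicate 2 or vector replicate 2 (0.0504 and 0.0568).

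Spindle checkpoint and anaphase genes fell in 8 of 10 cases, with a median log2 fold change of -0.57. Espl1, encoding separase, the protease that cuts cohesin at anaphase, had 74.6, 89.7 and 84.2 CPM in Bhlhe22 replicates 1, 2 and 3, against 138, 152 and 148 CPM in vector replicates 1, 2 and 3 (edgeR adjusted p = 0.0012, log2 fold change -0.82, SE 0.09). Cdca5, encoding sororin, which protects cohesin until then, had 23.7, 24.8 and 25.7 CPM in the Bhlhe22 libraries, against 43.6, 39.6 and 43.3 CPM in the vector libraries (edgeR adjusted p = 0.0012, log2 fold change -0.77, SE 0.08). Pttg1, encoding securin, the inhibitor of separase, had 27.1, 22.4 and 21.4 CPM in the Bhlhe22 libraries, against 30.5, 28.3 and 26.5 CPM in the vector libraries (edgeR adjusted p = 0.155, log2 fold change -0.27, SE 0.12). Securin was thus the one of these 3 whose groups overlapped, by Bhlhe22 replicate 1, and it passed without that library (log2 fold change -0.38, edgeR adjusted p = 0.015). The checkpoint kinases Ttk (-0.67) and Bub1 (-0.57) and the inhibitors of CDC20, Bub1b (-0.57) and Mad2l1 (-0.54), fell by similar amounts, all in log2 fold change. Bub3, which binds BUB1 and BUBR1 and loads them onto kinetochores, had 159, 174 and 160.0 CPM in the Bhlhe22 libraries, against 208, 159 and 178 CPM in the vector libraries (edgeR adjusted p = 0.390, log2 fold change -0.15, SE 0.11), and its groups overlapped.

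The highest levels per length of all 55 were those of a pair of genes that act with the APC/C. Cdc20, its mitotic activator, had 91.2 FPKM in Bhlhe22 cells and 112 FPKM in vector cells, and Ube2c, its ubiquitin-conjugating enzyme, had 67.7 FPKM in Bhlhe22 cells and 109 FPKM in vector cells. Ube2c fell, with 213, 177 and 179.9 CPM in the Bhlhe22 libraries, against 318, 292 and 295 CPM in the vector libraries (edgeR adjusted p = 0.0031, log2 fold change -0.67, SE 0.09), though 22.8% of its exon bases lie opposite exons of Tnnc2. Cdc20 fell less, with 225, 206 and 204 CPM in the Bhlhe22 libraries, against 252, 243 and 269 CPM in the vector libraries (edgeR adjusted p = 0.044, log2 fold change -0.27, SE 0.07). Its call was lost without any library but Bhlhe22 replicate 1 (edgeR adjusted p from 0.092 to 0.156), with no filter on low counts and with the replicate number as a block.

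The kinetochore genes held large falls as well as the smallest difference of all 55. Of 12, 7 fell and 5 did not pass, with log2 fold changes from -0.98 to -0.01 and a median of -0.48. The inner kinetochore stands on CENP-A, the centromeric histone, and Cenpa fell, with 112, 101 and 96.9 CPM in Bhlhe22 replicates 1, 2 and 3, against 137, 140.5 and 145 CPM in vector replicates 1, 2 and 3 (log2 fold change -0.45). Cenph had 10.1, 9.14 and 10.8 CPM in the Bhlhe22 libraries, against 19.1, 21.2 and 19.0 CPM in the vector libraries (edgeR adjusted p = 0.0013, log2 fold change -0.98, SE 0.11), and Cenpi fell by 0.82 on the log2 scale. CENP-H, CENP-I and CENP-K form 1 subcomplex of the inner kinetochore. Cenpk was the least abundant of the 55 per length (1.07 FPKM in Bhlhe22 cells and 1.51 FPKM in vector cells), and had 8.34, 6.20 and 5.70 CPM in the Bhlhe22 libraries, against 10.1, 8.59 and 9.45 CPM in the vector libraries (edgeR adjusted p = 0.087, log2 fold change -0.48, SE 0.17). Its groups did not overlap, by a margin of under 1 CPM, and it passed without Bhlhe22 replicate 1 (log2 fold change -0.66, edgeR adjusted p = 0.0065). Cenpn, whose protein reads CENP-A nucleosomes, had 51.8, 50.5 and 49.6 CPM in the Bhlhe22 libraries, against 50.8, 52.1 and 50.5 CPM in the vector libraries (edgeR adjusted p = 0.917, log2 fold change -0.01, SE 0.07). Its 6 values lay within 3 CPM of each other and the groups overlapped.

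The outer kinetochore binds microtubules through KNL1 and the 4-part NDC80 complex. Knl1, which also recruits the checkpoint, had 27.8, 33.8 and 34.0 CPM in the Bhlhe22 libraries, against 54.0, 57.4 and 76.5 CPM in the vector libraries (edgeR adjusted p = 0.0057, log2 fold change -0.97, SE 0.15), and vector replicate 3 was the highest of its libraries. Nuf2 fell, with 52.5, 49.4 and 44.1 CPM in the Bhlhe22 libraries, against 73.9, 73.9 and 73.2 CPM in the vector libraries (edgeR adjusted p = 0.0037, log2 fold change -0.60, SE 0.09). Its partners in the complex did not pass, and each passed without Bhlhe22 replicate 1. Ndc80 itself had 76.7, 66.6 and 65.2 CPM in the Bhlhe22 libraries, against 85.0, 85.0 and 81.9 CPM in the vector libraries (edgeR adjusted p = 0.061, log2 fold change -0.27, SE 0.08), with an adjusted p of 0.0016 without that library. Spc24 had 21.3, 15.5 and 13.3 CPM in the Bhlhe22 libraries, against 21.2, 25.6 and 22.8 CPM in the vector libraries (edgeR adjusted p = 0.106, log2 fold change -0.48, SE 0.18), with an adjusted p of 0.0035 without it. Spc25 had 41.5, 33.5 and 33.0 CPM in the Bhlhe22 libraries, against 49.0, 49.3 and 42.3 CPM in the vector libraries (edgeR adjusted p = 0.063, log2 fold change -0.38, SE 0.12), with an adjusted p of 0.0036 without it. Bhlhe22 replicate 1 was the highest of its group in all 4 genes of the complex, and in Spc24 it lay just above vector replicate 1. Of the fibrous corona proteins, Cenpf fell by 0.90, with 58.8, 71.2 and 86.9 CPM in the Bhlhe22 libraries, against 134, 139 and 130.2 CPM in the vector libraries, and the motor gene Cenpe fell by 0.46 (edgeR adjusted p = 0.015), both on the log2 scale. Cenpe, the most abundant kinetochore gene in FPKM at 15.7 FPKM in Bhlhe22 cells and 22 FPKM in vector cells, though just below Cenpa per GENCODE exon length, had 129.96, 155 and 163 CPM in the Bhlhe22 libraries, against 205, 212 and 201 CPM in the vector libraries. Its call was lost without any 1 vector replicate (edgeR adjusted p from 0.0554 to 0.0684). The kinetochore count was 11 without Bhlhe22 replicate 1, 7 without Bhlhe22 replicate 2 or 3 and 6 without any 1 vector replicate. The share of all tested genes that fell moved too, from 9.28% with all 6 libraries to 15.6% without Bhlhe22 replicate 1. That share was 5.37% and 7.01% without Bhlhe22 replicates 2 and 3, and 4.25% to 4.6% without 1 vector replicate.

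The genes of condensin and chromosome structure had the lowest median of the 6 roles, at -0.76, that is 41.1% lower, with 8 of 9 lower. Against the vector mean, that median was -0.84, -0.62 and -0.62 in Bhlhe22 replicates 1, 2 and 3, so replicate 1 was the lowest. In replicate 3 the kinetochore genes were lower, at -0.67, and no test of the difference between roles was made. Mki67, which coats mitotic chromosomes and is the common proliferation marker, had 193, 248 and 279 CPM in Bhlhe22 replicates 1, 2 and 3, against 448, 479 and 456 CPM in vector replicates 1, 2 and 3 (edgeR adjusted p = 0.0034, log2 fold change -0.94, SE 0.13). Top2a, the topoisomerase that untangles sister chromatids, had 421, 476 and 492 CPM in the Bhlhe22 libraries, against 779, 823 and 777 CPM in the vector libraries (edgeR adjusted p = 0.0011, log2 fold change -0.78, SE 0.08), and was the most abundant of the role in FPKM at 42.8 FPKM in Bhlhe22 cells and 74.4 FPKM in vector cells, though below Smc4 per GENCODE exon length in Bhlhe22 cells. For both the lowest value was in Bhlhe22 replicate 1, and all Bhlhe22 values lay well under the vector values. Ncapd2 (-0.80), Ncaph (-0.54) and Ncapg (-0.41), the non-SMC subunits of condensin I, fell, all in log2 fold change. Ncapg2, a subunit of condensin II, had 61.5, 76.7 and 75.7 CPM in the Bhlhe22 libraries, against 126, 132 and 125 CPM in the vector libraries (edgeR adjusted p = 0.0017, log2 fold change -0.84, SE 0.10). Smc2 and Smc4 are the ATPase pair that both condensins share. Smc2 had 90.3, 126 and 126 CPM in the Bhlhe22 libraries, against 189.6, 202 and 189 CPM in the vector libraries (edgeR adjusted p = 0.0082, log2 fold change -0.76, SE 0.13). Smc4 had 259.5, 325 and 294 CPM in the Bhlhe22 libraries, against 362, 355 and 336 CPM in the vector libraries (edgeR adjusted p = 0.097, log2 fold change -0.26, SE 0.09). Groups did not overlap for either, and Smc4 passed without Bhlhe22 replicate 1, at a smaller log2 fold change of -0.19 (edgeR adjusted p = 0.0385). Ncapg lost its call without vector replicate 1 or 2 (0.0635 and 0.0615), and 13.4% of its exon bases lie opposite Lcorl. Cdca2, encoding Repo-Man, which brings a phosphatase to chromatin at anaphase, fell by 0.51 on the log2 scale.

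All 7 genes of cytokinesis and the spindle midzone fell, with a median log2 fold change of -0.57 and a narrow range of -0.65 to -0.37. Ect2, the exchange factor that activates RHOA at the cleavage furrow, had 76.4, 100.04 and 86.7 CPM in Bhlhe22 replicates 1, 2 and 3, against 147, 143 and 124 CPM in vector replicates 1, 2 and 3 (edgeR adjusted p = 0.0094, log2 fold change -0.65, SE 0.12). Anln, encoding the ring scaffold anillin, had 189.7, 234 and 248 CPM in the Bhlhe22 libraries, against 338, 358 and 323 CPM in the vector libraries (edgeR adjusted p = 0.0098, log2 fold change -0.60, SE 0.11). Racgap1, the centralspindlin subunit that recruits ECT2, fell least, with 206, 199.8 and 201 CPM in the Bhlhe22 libraries, against 259, 258 and 266 CPM in the vector libraries (edgeR adjusted p = 0.0064, log2 fold change -0.37, SE 0.06). The groups were apart in all 7, and the replicates of Racgap1 lay within 9 CPM in each group. Hmmr, a spindle protein and the most abundant of the role per length at 26.7 FPKM in Bhlhe22 cells and 40.6 FPKM in vector cells, had 146, 162 and 172 CPM in the Bhlhe22 libraries, against 237, 249.6 and 233 CPM in the vector libraries (edgeR adjusted p = 0.0033, log2 fold change -0.58, SE 0.08). Prc1, which bundles midzone microtubules, fell by 0.47 on the log2 scale, with 11.1% of its exon bases opposite Rccd1, and lost its call without vector replicate 1 (edgeR adjusted p = 0.052). Nusap1 (-0.44) and Ckap2 (-0.57), microtubule-associated spindle proteins, also fell, in log2 fold change.

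Genes of the same complex, pathway or protein family changed by unequal amounts in several pairs, picked here with their values in view. Aurkb and Aurka are paired as Aurora kinases and not as partners in 1 complex. The log2 ratio of Aurkb to Aurka counts, which needs no scaling between libraries, was -0.86, -0.88 and -0.85 in Bhlhe22 replicates 1, 2 and 3, against -0.33, -0.38 and -0.25 in vector replicates 1, 2 and 3. Mybl2 to Foxm1 averaged -1.84 ± 0.11 in Bhlhe22 cells and -0.86 ± 0.35 in vector cells (SD, n = 3 each). Smc2 to Smc4 averaged -1.37 ± 0.15 in Bhlhe22 cells and -0.86 ± 0.07 in vector cells. The ratio of Nuf2 to Ndc80 averaged -0.51 ± 0.07 in Bhlhe22 cells and -0.19 ± 0.02 in vector cells. Ccna2 to Ccnb1 averaged 0.48 ± 0.06 in Bhlhe22 cells and 0.74 ± 0.14 in vector cells. The groups did not overlap for any of these 5 ratios. Given how the pairs were picked, that was close to set in advance, and ratios of other pairs were not computed. Of all single tested genes, 40.8% did not overlap in either direction. Each ratio had an exact two-sided permutation p of 0.1, the smallest that 3 against 3 libraries can give, so none could pass 0.05.

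Further genes of cell division, in 7 lists taken from textbook knowledge, moved less uniformly. Of their 119 genes 53 fell, 3 rose and 63 did not pass, with a median log2 fold change of -0.34. Without Bhlhe22 replicate 1, 71 of the 119 fell, where 15.6% of all tested genes fell, against 9.28% with all 6 libraries. Without vector replicate 1 or 2, 34 did, where 4.25% or 4.54% of all tested genes fell. Mitotic kinesins were lower in 10 of 12 cases, the largest fall being that of Kif20b (-0.93), a motor of late mitosis. Other spindle and cytokinesis genes were lower in 11 of 17, led by Iqgap3 (-0.94), and other kinetochore and centromere genes in 13 of 28, led by Cenps (-0.92), all in log2 fold change. In that last list 1 gene rose, Cenpq, an inner kinetochore subunit, with 74.0, 66.2 and 65.2 CPM in the Bhlhe22 libraries, against 48.6, 49.2 and 42.6 CPM in the vector libraries (edgeR adjusted p = 0.0076, log2 fold change 0.55, SE 0.09). Other mitotic entry kinases and phosphatases fell in 8 of 16, led by the kinase gene Melk (-1.19), and 1 rose, the phosphatase inhibitor Ensa (0.42). Other condensin and cohesin genes fell in 5 of 15 and none rose, though 1 did with the replicate number as a block or without vector replicate 2, with the acetyltransferase gene Esco2 (-0.90) the lowest. The core APC/C and its partners stood nearest to the median of all tested genes, with 2 of 20 lower, 1 higher and a median of -0.09. Fbxo5, encoding the APC/C inhibitor EMI1, had the largest fall there (-0.82) and the subunit gene Anapc16 rose (0.51), but the list had 0 higher without Bhlhe22 replicate 2 or any 1 vector replicate. Several of these counts moved with 1 library, as did the share of all tested genes that fell. Without Bhlhe22 replicate 1, 8 APC/C genes and 9 of the other condensin and cohesin genes were lower, and without any other 1 library 1 APC/C gene was. The kinesins had 11 lower and the other spindle and cytokinesis genes 14 without Bhlhe22 replicate 1. The other kinetochore and centromere genes had 8 lower without vector replicate 1 and 7 without vector replicate 2. The other entry kinases and phosphatases had 4 lower and 0 higher without vector replicate 1 or 3.

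The DREAM and MuvB genes, whose products form the complexes at CHR and E2F elements, fell in 4 of 11 cases with a median of -0.14. The largest fall was in Tfdp1 (-0.56, edgeR adjusted p = 0.041), a DNA-binding partner of E2F factors, and none rose. The count was 0 without vector replicate 1 or 2 and 1 without vector replicate 3. In those fits 4.25%, 4.54% and 4.6% of all tested genes fell, against 9.28% with all 6 libraries. The genes of G1/S and replication, which act earlier in the cycle, were lower in 30 of 32 cases with a median of -0.86, led by Pclaf (-1.88), a PCNA-binding factor. That median is lower than the -0.51 of the mitotic genes, and the difference between the lists was not tested.

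**Figure D5:**
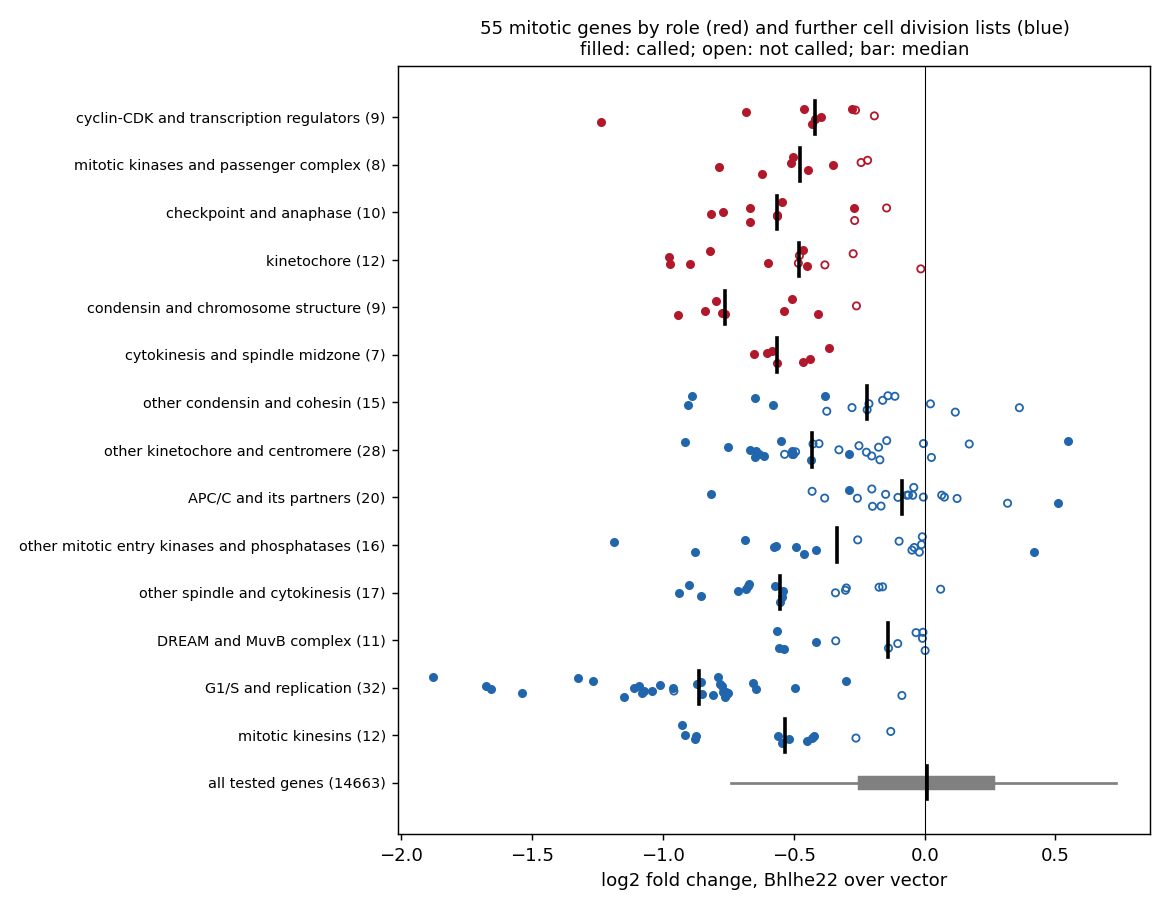
Log2 fold change, Bhlhe22 over vector cells (x axis), of each gene in the 6 roles of the mitotic genes (red) and the 8 further lists (blue), filled where called, with black bars for medians. The grey row gives all 14663 tested genes as the 5th to 95th percentile (line), the quartiles (thick line) and the median of 0.01.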

How the data were processed

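Per the submitters' processing notes, CASAVA 1.8, HISAT2 2.1.0, StringTie 1.3.4b and edgeR were used on GRCm38, with no step named for each. The deposited columns are raw counts, and FPKM values derived by the authors. For annotation release, filters and strand setting: not given in the sources used here. The length behind the deposited FPKM was 1 to 2.37 times the exon bases of GENCODE M21 (median 1.35), so levels compared between genes per length carry that uncertainty. All 55 genes had the same coordinates there.

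Counts were tested with edgeR 4.0.16 in R 4.3.3: TMM scaling, filterByExpr (minimum count 10, total 15), robust quasi-likelihood tests, with p-values adjusted (Benjamini-Hochberg) over 14663 genes at 0.05. All 55 genes passed the filter. CPM values use TMM-scaled library sizes. SE is the log2 fold change divided by the root of the F statistic. The fit was run on simulated data only to check that it works. How often it calls changes as small as those described here is not given. Exon overlaps came from GENCODE M21 and promoter windows from RefSeq. Alternatives were DESeq2 1.42.0, limma 3.58.1 (voom, and log2 FPKM with pseudocount 1), other scalings and filters, a non-robust fit, a replicate block and leaving out each library. Ratios were tested with exact permutation (scipy 1.17.1).

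The 55 genes and the lists were chosen with earlier results of these data known. Any of the 55 could be named. Per-library values were given for the 2 largest changes, the smallest change and the most abundant gene of each role, for all genes that did not pass, and for Cdk1, Ccnb1, Plk1, Aurka, Aurkb, Foxm1, Mybl2 and Mki67. Cenpa, Cenpf, Nuf2, Smc2, Cdc25b, Ube2c and Ccnb1-ps were added after their values were seen. Of each further list, the largest decrease and increase that passed were named. Protein motifs were not examined here.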

Additional observations from a re-analysis of the deposited data

How the results depend on the processing

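All 55 genes had a log2 fold change below 0 under each of the 10 alternatives that kept all libraries and in 5 of the 6 fits that left 1 out, the exception being Cenpn without Bhlhe22 replicate 3 (0.00070, edgeR adjusted p = 0.997; its range over those 6 fits was -0.038 to 0.00070). The count of lower genes was 40 to 46 under those 10 alternatives (46 with DESeq2, 40 with the replicate block), and 34 of the 43 kept their call under all 16. The median of all tested genes lay between -0.01 and 0.01 throughout.

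Leaving out each library in turn gave 633 to 2337 lower and 715 to 2345 higher genes of all tested, and 35 to 51 lower among the 55. The median of the 55 ranged from -0.54 to -0.50. Entry regulators had 3 to 7 lower, kinetochore genes 6 to 11, APC/C 1 to 8 lower and 0 to 2 higher, DREAM and MuvB 0 to 4 lower, condensin and cohesin 4 to 9 lower and 0 to 1 higher, other kinetochore genes 7 to 17 lower, and other entry kinases 4 to 8 lower and 0 to 1 higher.

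With no filter 1 APC/C gene was lower, with DESeq2 4 were lower and 2 higher, and with the replicate block 1 was lower, while 2 DREAM and MuvB genes were lower and 1 condensin or cohesin gene was higher. The block gave 993 lower and 1086 higher genes of all tested. The labels do not say that a number marks a shared culture, and the same-numbered libraries had correlations of deviations of 0.045, 0.0217 and 0.0255, so the numbers were not taken to pair them. The causes of these shifts were not tested. The lowest counts among the 55 were those of Cenpk, at 120.0 to 202 a library.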

Other observations

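The 55 genes lie on 19 chromosomes, 11 of them on chromosome 2. On the deposited coordinates, 12 share exon bases with a gene on the other strand, and in 5 the shared part is over 10%: Ccna2 (12.5%, with Exosc9), Cdc25c (12.7%, with Gm3550), Ube2c (22.8%, with Tnnc2), Ncapg (13.4%, with Lcorl) and Prc1 (11.1%, with Rccd1). Reads of such pairs cannot be told apart unless counted by strand. Another 3 share exon bases with a gene on the same strand, where strand does not separate them: Foxm1 (2.5%), Ncapd2 (3.78%) and Top2a (1.35%).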
